A study of Rattus norvegicus with 16 samples.

Results

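Enzymes of mitochondria that oxidise fatty acids and ketone bodies, Hadha, Eci1 and Acat1, were followed in denervated and innervated rat muscle. They were taken as the probes that the membrane platform's gene table names Hadha, Eci1 (older symbol Dci) or Acat1, which gave 3 probes, 1 per gene, of the 1176 tested (3 of 1089 named genes). The muscle was the EDL (extensor digitorum longus, a fast toe extensor), taken from 6-month-old rats of the Brown-Norway strain. Of 16 arrays, 8 came from EDL muscle denervated for 2 months and 8 from control EDL muscle with its nerve. The labels name no other treatment, do not say how the nerve was interrupted, and number the rats 1 to 8 in both groups without saying whether a number is 1 animal, so each array was taken as 1 rat and p-values measure the spread between these arrays.

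Mitochondria break fatty acids down by beta-oxidation, a cycle that shortens the chain and releases acetyl-CoA for the citric acid cycle. Long chains are handled by the mitochondrial trifunctional protein, whose alpha subunit, the product of Hadha, carries the hydratase and dehydrogenase steps and whose beta subunit, the product of Hadhb, carries the thiolase step. Eci1 encodes an isomerase that moves the double bonds of unsaturated fatty acids so that they can enter the cycle. Acat1 encodes the mitochondrial acetoacetyl-CoA thiolase, which acts late in the use of ketone bodies and in the breakdown of isoleucine. In skeletal muscle these enzymes are most abundant in oxidative fibres, and the EDL is mainly glycolytic.

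All 3 genes matched an entry of RefSeq's rat promoter table (build GRCr8), which holds 250 bases before and 50 bases after a transcript start. These windows are shown because the start of Hadha lies beside that of its partner Hadhb. A further reason is that the 3 transcripts separated the groups in the same rats, as described further on. Such a separation was shown upward by 19.3% of all probes as deposited, and only Hadha kept it after quantile normalisation. Shared control of the 3 genes was not tested. The window of Hadha lies at chr6:31907551-31907850 on the plus strand, that of Eci1 at chr10:13961000-13961299 on the plus strand and that of Acat1 at chr8:62904993-62905292 on the minus strand. Each is written 5′ to 3′ along its gene, with matches on either strand to the GC box (GGGCGG), the CCAAT box and the nuclear receptor half-site (AGGTCA) in capitals.
Hadha: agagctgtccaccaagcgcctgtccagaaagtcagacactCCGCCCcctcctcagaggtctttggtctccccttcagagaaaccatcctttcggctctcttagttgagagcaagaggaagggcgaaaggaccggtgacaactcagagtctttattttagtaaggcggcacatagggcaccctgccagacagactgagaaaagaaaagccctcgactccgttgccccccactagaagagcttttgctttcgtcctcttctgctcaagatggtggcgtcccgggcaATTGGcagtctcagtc
Eci1: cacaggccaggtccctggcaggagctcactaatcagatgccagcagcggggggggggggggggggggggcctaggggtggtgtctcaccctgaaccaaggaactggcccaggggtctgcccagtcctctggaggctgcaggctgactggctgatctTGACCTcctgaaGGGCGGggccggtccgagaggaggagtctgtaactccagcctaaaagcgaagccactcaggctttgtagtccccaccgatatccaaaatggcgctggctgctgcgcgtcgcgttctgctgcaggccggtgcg
Acat1: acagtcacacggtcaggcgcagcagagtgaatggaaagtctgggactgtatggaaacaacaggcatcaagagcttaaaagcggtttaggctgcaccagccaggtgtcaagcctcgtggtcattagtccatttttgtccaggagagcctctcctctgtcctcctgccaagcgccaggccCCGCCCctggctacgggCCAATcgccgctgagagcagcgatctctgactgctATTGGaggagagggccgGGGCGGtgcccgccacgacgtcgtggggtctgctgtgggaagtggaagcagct
The GC box GGGCGG, a letter pattern bound by Sp1 proteins, was present in all 3 windows, with 1 match each in Hadha and Eci1 and 2 matches in Acat1, and occurs in 33.1% of the 33469 promoters of the table. CCAAT matched once in Hadha and at 2 places in Acat1 (37.5% of promoters). AGGTCA, the half-site of nuclear receptors such as the PPAR and ERR families, matched once in Eci1 (16.2% of promoters). None of the 3 windows held the longer motifs TCAAGGTCA (0.433% of promoters) or DR1, the half-site repeated with any 1 base between (0.0538% of promoters), both of which contain the half-site. The transcript start of Hadha lies 301 bases from that of Hadhb, which runs the other way on the minus strand, so the promoter windows of these genes share 200 bases.

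The deposited values lie on a logarithmic scale whose base is not given in the sources used here, so differences are given in log units and not as folds. Array means lay between 8.19 and 8.31 log units on 15 arrays, and the array of control rat 6 stood apart at 6.63. Results are therefore given as deposited, after subtracting each array's median (centred), and without that array where it moved them. The lowest value of each array was shared by 22 to 206 probes and is called its floor, and none of the 3 genes was at the floor on any array. Over all probes, the first principal component of deviations from the group means (20.8% of their variance) had 1 sign on all 8 arrays of rats 1 to 4 and the other sign on all 8 arrays of rats 5 to 8. The labels do not mention these sets of rats, which are a division seen in the values and not in the design. Muscle identity could be checked on 3 of 20 listed markers of fast muscle, Ckm, Pgam2 and Mylk2, which were above the floor on all arrays.

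The comparison of denervated with control EDL asked how these transcripts stood after 2 months without a nerve. All 3 means were higher in denervated muscle, by 1.11 log units for Hadha, 0.84 for Eci1 and 0.77 for Acat1, but none of the 3 passed limma's test at an adjusted p under 0.05, where 5.44% of all probes passed as higher. At an unadjusted p under 0.05, 2 of the 3 passed in limma (17.9% of all probes, either direction) and 1 by exact permutation, and none passed by exact permutation after adjustment. None passed after centring, where 2.98% of all probes passed as higher, or after quantile normalisation, where 2.98% passed as higher and 2.3% as lower. The set of rats 5 to 8 had the larger differences, 1.92 for Hadha, 1.60 for Eci1 and 1.20 for Acat1, and the set of rats 1 to 4 had 0.30, 0.09 and 0.34. In bulk muscle, a higher share of a cell type and more transcript per cell cannot be told apart.

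Hadha, the alpha subunit of the trifunctional protein, had a lowest value of 8.90, a median of 9.25 and a highest value of 9.47 log units on the denervated arrays, against 6.29, 8.24 and 9.43 on the control arrays. The denervated arrays were all high and close together, 6 of the 8 control arrays lay below every one of them, and control rats 2 and 4 lay among them. The mean was 9.20 ± 0.21 in denervated and 8.09 ± 1.04 in control muscle (SD, n = 8 each). The difference of 1.11 had a 95% interval of 0.31 to 1.91 and did not pass in limma (adjusted p = 0.0910) or by exact permutation (p = 0.00668, adjusted p = 0.0873). It ranked 92nd from the highest of 1176 differences. Centring lowered it to 0.90 (limma adjusted p = 0.187), and quantile normalisation left it at 1.02 (limma adjusted p = 0.159). With the set of rats as a block the Hadha difference of 1.11 passed in limma (adjusted p = 0.0368), where 9.95% of all probes passed as higher, but not after centring (0.90, limma adjusted p = 0.0703). As deposited it also passed without control rat 2 (1.28, limma adjusted p = 0.0376) or without control rat 4 (1.30, limma adjusted p = 0.0318), the control arrays with the highest Hadha values. After centring neither omission passed (limma adjusted p = 0.0853 and 0.108), nor did any of the 16 omissions of 1 array.

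Eci1, the isomerase for unsaturated fatty acids, had a lowest value of 9.53, a median of 10.23 and a highest value of 10.61 log units on the denervated arrays, against 7.55, 9.44 and 10.82 on the control arrays. The 4 control arrays of rats 5 to 8 were below every denervated array, and the 4 control arrays of rats 1 to 4 lay within or above the denervated range. The mean was 10.15 ± 0.44 in denervated and 9.30 ± 1.29 in control muscle (SD, n = 8 each), a difference of 0.84 with a 95% interval of 0.03 to 1.65 (limma adjusted p = 0.251). Centring gave 0.63 (95% interval -0.21 to 1.47, limma adjusted p = 0.443). After centring, the difference was 0.37 without control rat 8.

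Acat1, the acetoacetyl-CoA thiolase, had a lowest value of 10.55, a median of 11.30 and a highest value of 12.25 log units on the denervated arrays, against 8.71, 10.69 and 11.98 on the control arrays. The control arrays again fell apart, with rats 5 to 8 below every denervated array and rats 1 to 4 within the denervated range. The mean was 11.36 ± 0.61 in denervated and 10.60 ± 1.10 in control muscle (SD, n = 8 each), a difference of 0.77 with a 95% interval of -0.07 to 1.60 (limma adjusted p = 0.329). It was 0.50 without control rat 6, the low array (limma adjusted p = 0.503). Quantile normalisation, which gives every array the same distribution of values, brought the Acat1 difference to -0.02 (95% interval -0.40 to 0.36, limma adjusted p = 0.978), so its direction rests on the scaling. Under that normalisation Acat1 differed by 0.00 in rats 5 to 8 as well.

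**Figure D1:**
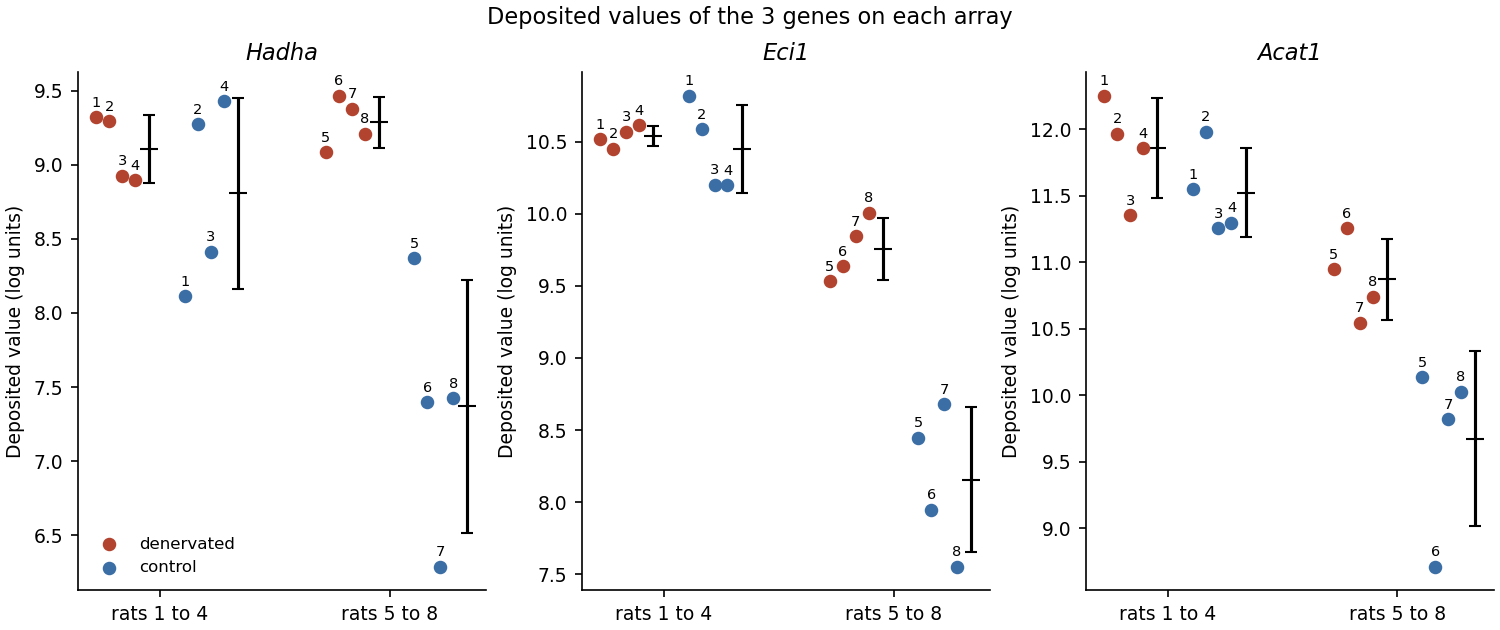
Deposited values (log units, vertical axes) of Hadha, Eci1 and Acat1 on each array, with denervated arrays in red and control arrays in blue within rats 1 to 4 and rats 5 to 8; digits are rat numbers, and bars give mean ± SD of 4 arrays. In rats 5 to 8 the 4 denervated arrays lie above the 4 control arrays for each gene, and in rats 1 to 4 the groups overlap.

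Within rats 5 to 8 the groups did not overlap for any of the 3 genes. Hadha stood at 9.09, 9.47, 9.38 and 9.21 log units on the denervated arrays of rats 5, 6, 7 and 8, against 8.37, 7.40, 6.29 and 7.42 on the control arrays of those numbers. Eci1 stood at 9.53, 9.64, 9.84 and 10.01 on the denervated arrays of rats 5 to 8, against 8.45, 7.95, 8.68 and 7.55 on the control arrays. Acat1 stood at 10.95, 11.25, 10.55 and 10.74 on the denervated arrays of rats 5 to 8, against 10.14, 8.71, 9.82 and 10.03 on the control arrays. Denervated values were thus the higher for all 3 enzymes on all 4 arrays, both as deposited and after centring. After quantile normalisation only Hadha kept this separation in rats 5 to 8, with 2 of 4 denervated arrays above every control array for Eci1 and 1 of 4 for Acat1. Such a separation was common in these rats, as 19.3% of all probes showed it upward as deposited and 10.1% after centring.

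In limma fits to rats 5 to 8 alone, Hadha was higher by 1.92 (95% interval 0.77 to 3.06, adjusted p = 0.0176), Eci1 by 1.60 (95% interval 0.68 to 2.51, adjusted p = 0.0124) and Acat1 by 1.20 (95% interval 0.44 to 1.96, adjusted p = 0.0265). In that fit 11.1% of all probes passed as higher. The set of rats 5 to 8 is itself a division seen in these values, so its p-values are a description and not a separate test. The median of all probes there was a difference of 0.55. After centring only Eci1 passed, at 1.10 (limma adjusted p = 0.0365), where 7.23% of all probes did, while Hadha stood at 1.42 (limma adjusted p = 0.0700) and Acat1 at 0.70 (limma adjusted p = 0.0907). Without the low array of control rat 6 the rises in rats 5 to 8 were 1.93 for Hadha, 1.53 for Eci1 and 0.88 for Acat1 (limma adjusted p = 0.00927, 0.00289 and 0.0190). In that fit, chosen after the values were seen, 171 of 1176 probes passed in either direction.

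In rats 1 to 4 the denervated arrays had Hadha at 9.32, 9.29, 8.93 and 8.90 log units, against 8.11, 9.27, 8.42 and 9.43 on the control arrays. Eci1 there was nearly level, at 10.52, 10.45, 10.57 and 10.61 on the denervated arrays, against 10.82, 10.58, 10.20 and 10.20 on the control arrays. Acat1 stood at 12.25, 11.97, 11.35 and 11.86 on the denervated arrays, against 11.55, 11.98, 11.25 and 11.30 on the control arrays. The groups overlapped for each gene, and the intervals of the differences in rats 1 to 4 were -0.54 to 1.14 for Hadha, -0.60 to 0.77 for Eci1 and -0.46 to 1.13 for Acat1. The difference between the sets in the effect of denervation (rats 5 to 8 minus rats 1 to 4), fitted in limma as an interaction chosen after the values were seen, was 1.62 for Hadha (limma adjusted p = 0.264), 1.51 for Eci1 (limma adjusted p = 0.189) and 0.86 for Acat1 (limma adjusted p = 0.468). None of the 3 passed in limma after adjustment (2 at an unadjusted p under 0.05, Hadha and Eci1), nor did any other probe (0.0%, with 159 of 1176 at an unadjusted p under 0.05), so the sets were not shown to differ in the effect.

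**Figure D2:**
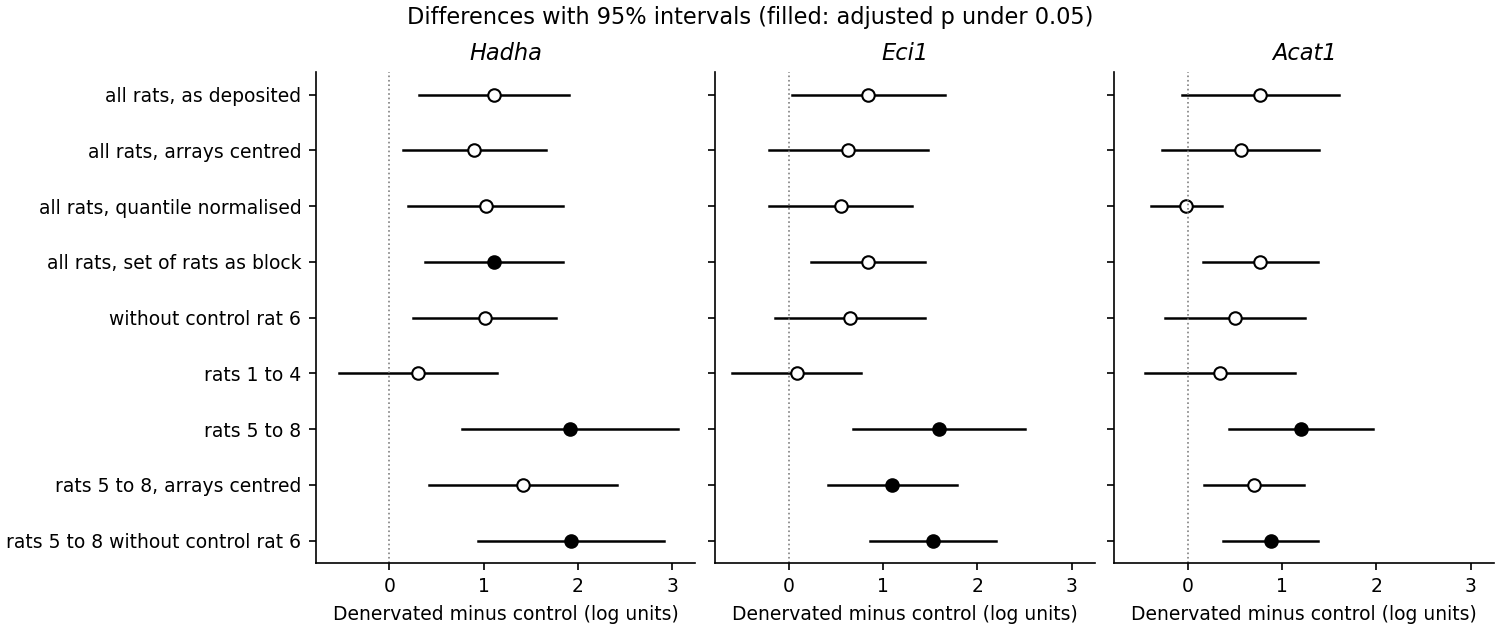
Differences, denervated minus control (log units, horizontal axes), of Hadha, Eci1 and Acat1 under 9 settings, with 95% intervals from limma; filled points have an adjusted p under 0.05. All 3 genes are filled in rats 5 to 8 as deposited, and Acat1 lies at -0.02 after quantile normalisation.

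Eci1 and Acat1 also stood lower in rats 5 to 8 than in rats 1 to 4 in both groups. Eci1 averaged 9.75 ± 0.21 log units in rats 5 to 8 and 10.54 ± 0.07 in rats 1 to 4 among denervated arrays, and 8.16 ± 0.50 and 10.45 ± 0.30 among control arrays (SD, n = 4 each). Acat1 averaged 10.87 ± 0.30 in rats 5 to 8 and 11.86 ± 0.37 in rats 1 to 4 among denervated arrays, and 9.67 ± 0.66 and 11.52 ± 0.33 among control arrays (SD, n = 4 each). For Eci1 and Acat1 the sets did not overlap within either group, as deposited or after centring, a pattern shared by 3.66% of all probes as deposited and 6.12% after centring. Hadha did not follow it, since its denervated arrays averaged 9.29 ± 0.17 in rats 5 to 8 and 9.11 ± 0.23 in rats 1 to 4 (SD, n = 4 each), while its control arrays averaged 7.37 ± 0.85 and 8.81 ± 0.64. What the sets stand for was not tested.

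The 3 enzymes differed in how tightly the rats of a group agreed. Hadha had an SD of 0.209 log units over the 8 denervated arrays and 1.04 over the 8 control arrays. Only 7 of the 1176 probes had a lower SD in denervated muscle, and 5 had a higher ratio of control to denervated SD than the 4.96 of Hadha, where the median ratio was 1.30. After centring, 1 probe had a lower denervated SD and none a higher ratio. Eci1 had an SD of 0.443 in denervated and 1.29 in control muscle, and Acat1 of 0.614 and 1.10, against medians over all probes of 0.772 in denervated and 0.987 in control muscle. After centring, Eci1 had 0.669 and 1.25 and Acat1 0.816 and 0.956, against medians of 0.774 and 0.877, so the denervated SD of Acat1 then lay above the median. These ranks describe the arrays and were not tested.

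**Figure D3:**
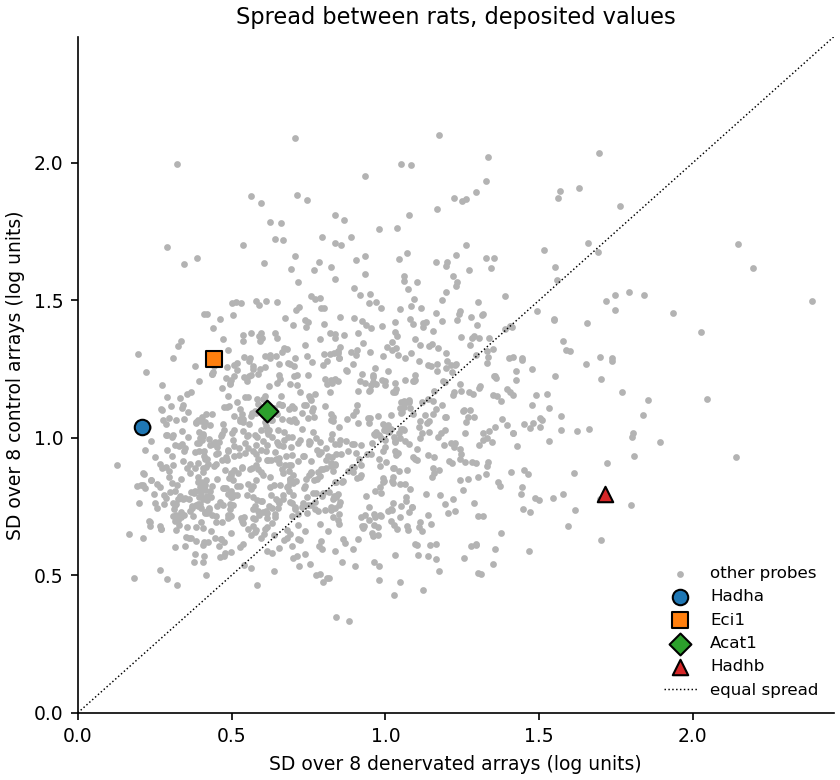
Standard deviation (log units) of each of the 1176 probes over the 8 denervated arrays (horizontal axis) and the 8 control arrays (vertical axis), deposited values, with the dotted line at equal spread. Hadha lies at the left edge, at 0.209 and 1.04, and Hadhb lies below the line.

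Hadhb, the partner subunit of Hadha, whose start lies 301 bases from that of Hadha, did not show the same pattern over all rats. It was singled out after its values were seen. Hadhb had a lowest value of 5.30, a median of 9.76 and a highest value of 10.12 log units on the denervated arrays, against 8.02, 9.71 and 10.30 on the control arrays. The medians were nearly equal, and the low values belonged to denervated rats 1 and 2, at 7.48 and 5.30, the second of them at the floor of its array. The mean difference of Hadhb was -0.49 (95% interval -1.44 to 0.46, limma adjusted p = 0.629), and 0.04 without denervated rat 2. The difference between Hadha and Hadhb within an array, which scaling by a constant per array does not affect, averaged 0.22 ± 1.77 on denervated and -1.38 ± 1.0 on control arrays (SD, n = 8 each), a change of 1.60. Without denervated rats 1 and 2, the low Hadhb arrays, the change was 0.70, and within sets it was 1.31 for rats 5 to 8 and 1.89 for rats 1 to 4. These changes are a description with no test, since Hadhb was chosen for its pattern, and the 1.60 and 1.89 include the floor value of denervated rat 2.

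**Figure D4:**
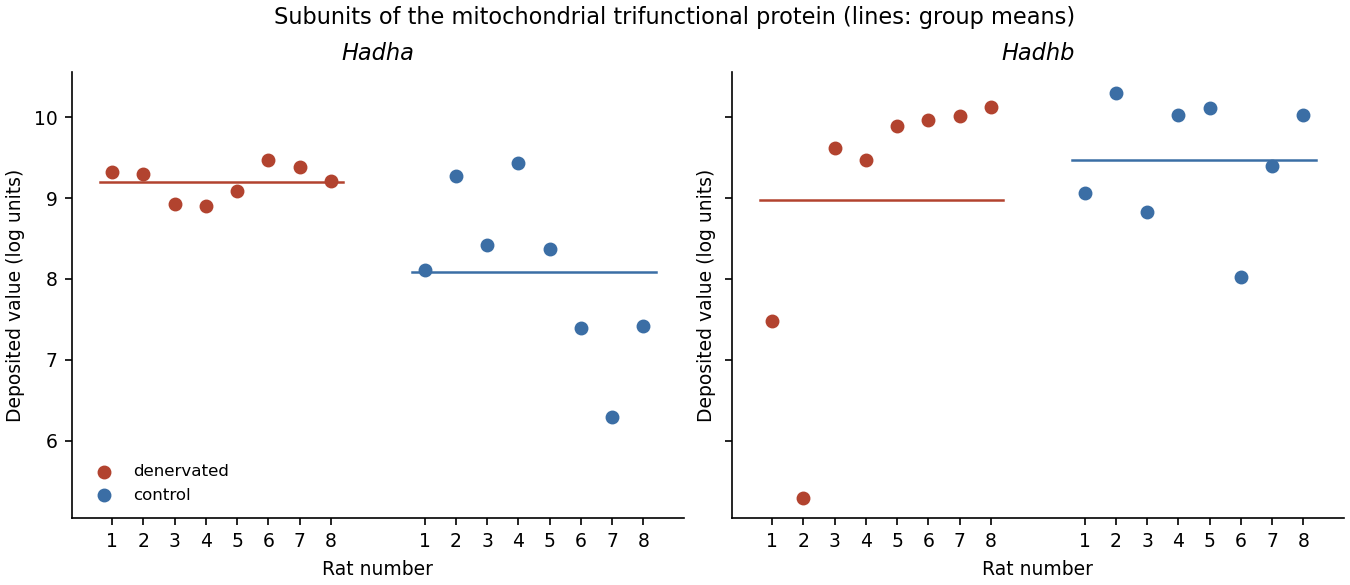
Deposited values (log units, vertical axis) of Hadha and Hadhb by rat number (horizontal axis), denervated arrays in red at the left of each panel and control arrays in blue, with lines at the group means. Denervated Hadha values keep between 8.90 and 9.47, while Hadhb falls to 7.48 and 5.30 on the arrays of denervated rats 1 and 2.

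Because the arrays fell into sets, the likeness of the 3 genes was measured within each set over its 8 centred arrays, denervated and control together. In rats 5 to 8, Hadha went with Eci1 at Pearson r = 0.72 and Spearman rho = 0.83 (exact permutation p = 0.0408 and 0.0154) and with Acat1 at r = 0.78 and rho = 0.81 (exact permutation p = 0.0181 and 0.0218). Eci1 and Acat1 there had r = 0.57 and rho = 0.60 (exact permutation p = 0.140 and 0.132). In rats 1 to 4 the values were r = -0.25 and rho = -0.31 for Hadha with Eci1 (exact permutation p = 0.555 and 0.462), r = 0.42 and rho = 0.52 for Hadha with Acat1 (exact permutation p = 0.315 and 0.197), and r = 0.57 and rho = 0.45 for Eci1 with Acat1 (exact permutation p = 0.137 and 0.267). None of the 6 relations passed after adjustment over the 6, with adjusted exact permutation p of 0.109 or more for r and 0.0653 or more for rho. Without the 2 arrays farthest from the median of the first gene, r was 0.87 and 0.74 for Hadha with Eci1 and with Acat1 in rats 5 to 8, and turned to -0.42 for Eci1 with Acat1 in rats 1 to 4. These arrays hold both groups, so the difference between groups in rats 5 to 8 is part of their r. The groups did not overlap there for any of the 3 genes after centring. The p-values in rats 5 to 8 therefore cannot tell likeness within a group from that separation.

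Among 988 genes with 1 symbol and values above the floor on at least 12 arrays, the genes closest to each enzyme over the 16 centred arrays were listed by Pearson r, as a description. For Hadha they were Scarb2, a lysosomal membrane protein (r = 0.92), Atp2b3, a plasma membrane calcium pump (r = 0.89), and Prdx6, a peroxiredoxin (r = 0.88). These rest in part on the lowest arrays, as r was 0.71, 0.56 and 0.62 without the 2 arrays farthest from the Hadha median. For Eci1 they were Prkag1, a subunit of the energy sensor AMPK (r = 0.95), Tmed10, a trafficking protein of the secretory pathway (r = 0.93), and Ap2m1, a subunit of a clathrin adaptor (r = 0.93). Within sets, Eci1 had an r with Prkag1 of 0.41 among rats 1 to 4 and of 0.87 among rats 5 to 8, beside the step in Eci1 level between the sets. For Acat1 they were Nfic, a transcription factor (r = 0.98), Selenop, a secreted selenoprotein (r = 0.97), and Ndufs6-ps1 (r = 0.97), with r of at least 0.77 within each set. After quantile normalisation the r with Acat1 was 0.86 for Nfic, 0.62 for Selenop and 0.70 for Ndufs6-ps1. None of these 9 genes passed in limma, with adjusted p from 0.0995 for Scarb2 to 0.395 for Atp2b3. Centred arrays still share the step between sets of rats and the difference between groups, and both enter every r over 16 arrays. Among rats 1 to 4, Hadha had an r of 0.79 with Scarb2, 0.42 with Atp2b3 and 0.70 with Prdx6. Eci1 there had 0.47 with Tmed10 and 0.92 with Ap2m1. Among rats 5 to 8 these values were 0.93, 0.98, 0.92, 0.91 and 0.80 in the same order.

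Of 157 genes listed for fatty acid, ketone and energy metabolism, 29 were on the membrane. In limma 4 of the 29 rose and 0 fell (7 at an unadjusted p under 0.05), where 5.44% of all probes rose and 0.85% fell. After quantile normalisation 3 were higher and 1 was lower, Atp5f1d, a subunit of ATP synthase, at -0.66 (limma adjusted p = 0.0375), against 0.13 as deposited and -0.08 after centring. The difference was positive for 24 of the 29 and for 749 of all 1176 probes, and its median was 0.48 log units over the 29 and 0.22 over all probes. After quantile normalisation both medians were -0.01. In rats 5 to 8 the medians were 0.77 over the 29 and 0.55 over all probes, and in rats 1 to 4 they were 0.06 and -0.03.

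None of the 5 measured genes of mitochondrial beta-oxidation passed in limma (2 at an unadjusted p under 0.05, Hadha and Eci1), with a median of 0.64. Beside those, Decr1, the reductase that works with Eci1 on unsaturated chains, averaged 8.10 ± 0.64 log units in denervated and 7.46 ± 0.95 in control muscle (SD, n = 8 each), a difference of 0.64 (limma adjusted p = 0.490). Echs1, the hydratase for short chains, named here as the remaining member, differed by 0.48 (limma adjusted p = 0.512), with 0.50 in rats 5 to 8 and 0.47 in rats 1 to 4. Acat1 was the only ketone body gene measured, and Crot, a carnitine acyltransferase of peroxisomes that stood alone for the carnitine shuttle, differed by 0.06 (limma adjusted p = 0.966). Of 4 peroxisomal genes none passed in limma (1 at an unadjusted p), with the transporter Abcd3 at 0.80 (limma adjusted p = 0.219), the bifunctional enzyme Hsd17b4 at 0.22 and the oxidases Acox3 at 0.26 and Acox2 at -0.12. None of 4 genes of branched-chain amino acid breakdown, the pathway that Acat1 serves for isoleucine, passed (0 at an unadjusted p), among them Bckdk at 0.38, Bcat1 at -0.31 and Ivd at 0.21. Of the listed regulators only the AMPK subunits Prkag1, at 0.77 (limma adjusted p = 0.390), and Prkab1, at 0.06, were measured, and neither passed at an unadjusted p.

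The 4 rises lay in neighbouring steps, 1 of 3 measured genes of fatty acid uptake and activation, 2 of 5 of the respiratory chain and 1 of 4 of lipid synthesis. Acsl4, an acyl-CoA ligase that prefers polyunsaturated fatty acids, rose by 2.26 (limma adjusted p = 0.00736), with 8.90 ± 1.20 in denervated and 6.64 ± 1.64 in control muscle (SD, n = 8 each) and 3 control arrays at the floor. Its relative Acsl5 stood at -1.06 (limma adjusted p = 0.355). The cytochrome c oxidase subunits Cox8a and Cox6a1 rose by 4.84 (limma adjusted p = 3.34e-10) and 1.36 (limma adjusted p = 0.0220), Cox8a with 6 of 8 control arrays at the floor. Cox6a1 did not pass after centring (limma adjusted p = 0.0608) or quantile normalisation (limma adjusted p = 0.0700). Scd, a desaturase that makes monounsaturated fatty acids, rose by 2.97 (limma adjusted p = 3.24e-05), with 5 control arrays at the floor. Cox8a and Scd passed after centring, after quantile normalisation, by exact permutation (adjusted p = 0.0183 and 0.0261) and with centred arrays raised to a common floor. How values at the floor were set is not stated in the sources used, so the sizes of these differences are not exact, and with the common floor they were 3.72 for Cox8a and 2.19 for Scd (limma adjusted p = 5.27e-05 and 0.00264). Acsl4 passed after centring and quantile normalisation, but with the common floor it stood at 1.59 and did not pass (limma adjusted p = 0.0706), and the exact permutation test did not pass either (adjusted p = 0.0740). As deposited, Acsl4, Cox8a and Scd each differed by over 2 log units in both sets of rats, unlike Hadha, Eci1 and Acat1. The differences of rats 5 to 8 include the low array of control rat 6. Without that array, the differences over all rats were 1.775 for Acsl4, 4.43 for Cox8a and 2.81 for Scd. All 3 still passed in limma (adjusted p = 0.0315, 1.18e-07 and 4.79e-04). Their differences within rats 5 to 8 without it are not given here.

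**Figure D5:**
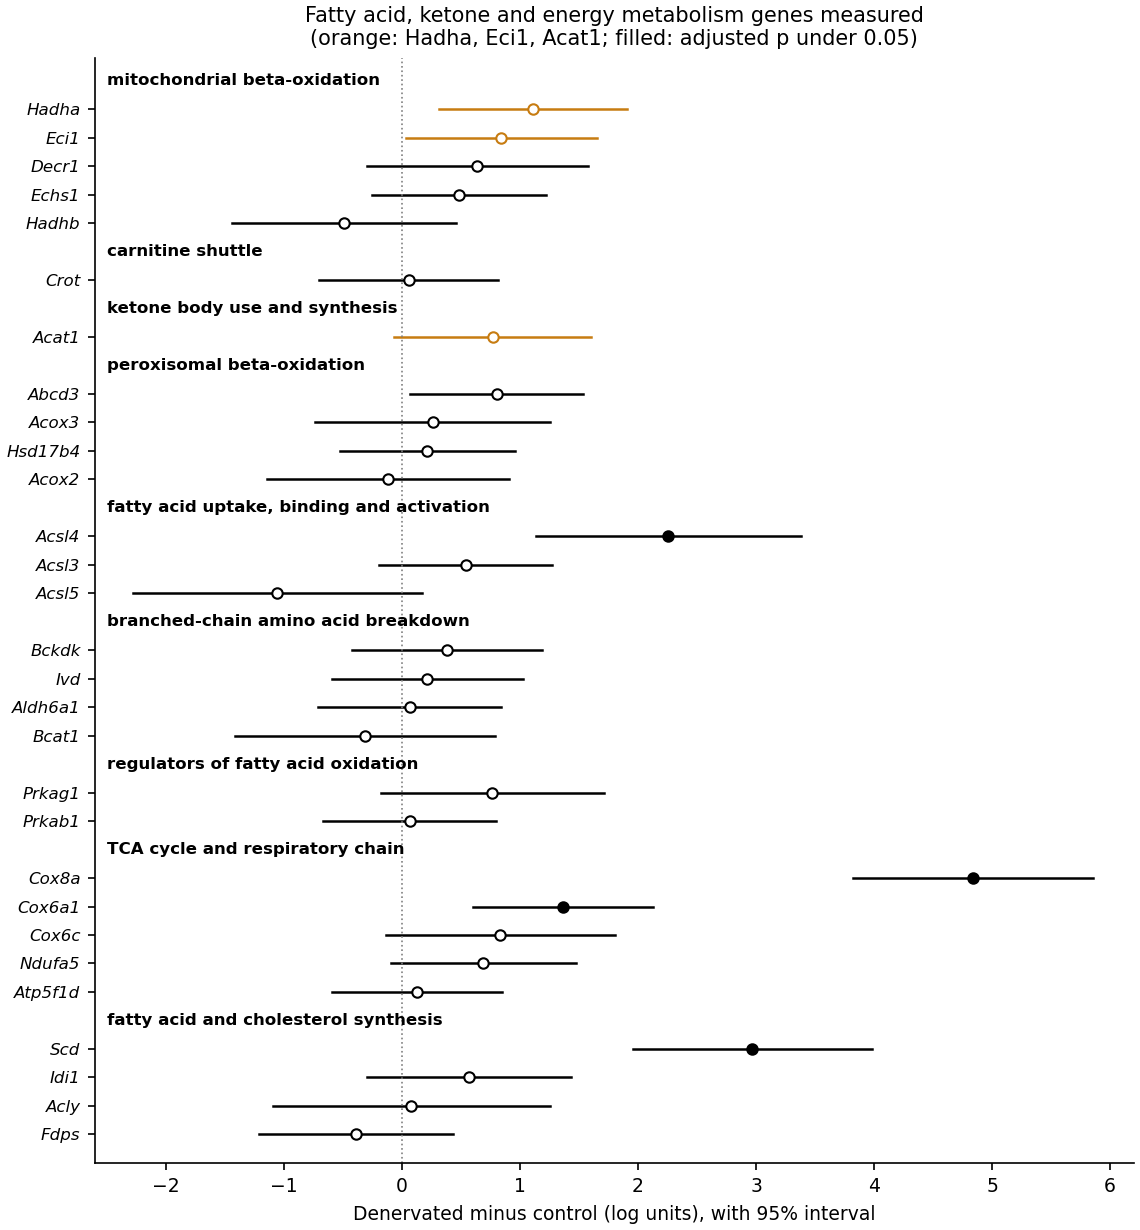
Differences, denervated minus control (log units, horizontal axis), of the 29 measured genes of fatty acid, ketone and energy metabolism, by list, with 95% intervals from limma; Hadha, Eci1 and Acat1 are orange, and filled points have an adjusted p under 0.05. The 4 filled points are Cox8a, Scd, Acsl4 and Cox6a1.

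Markers of fibre types and of other cells moved in the same comparison. Of 85 listed markers 18 were measured, and 6 rose and 1 fell in limma, where 5.44% of all probes rose and 0.85% fell. Mylk2, a myosin kinase of fast muscle, fell by 1.87 (limma adjusted p = 4.18e-04), while the other fast markers Ckm and Pgam2 differed by 0.70 and 0.15 and did not pass. Pgam2 turned under quantile normalisation, where its difference was -0.93 (limma adjusted p = 0.0172). Casq2, the calsequestrin of slow and cardiac muscle and the 1 slow marker measured of 9 listed, rose by 1.76 (limma adjusted p = 0.00126). Of 11 listed fibroblast and matrix markers 3 were measured, and all 3 rose in limma (Bgn, Dcn and S100a4). Array means over them were 11 to 12.1 log units in denervated and 7.49 to 10.2 in control muscle. That control range includes the low array of control rat 6. Without it the differences were 1.92 for Bgn, 1.16 for Dcn and 2.69 for S100a4. Of 10 adipocyte markers 2 were measured, of which Scd rose and Acly differed by 0.08. Neither of 2 measured macrophage and leukocyte markers of 13 listed, Cd48 and C1qb, passed in limma (2 at an unadjusted p). Tagln and Myh11, the 2 measured of 10 vessel markers, did not pass even unadjusted. Of 5 measured Schwann cell and nerve markers of 12 listed, only Nefm passed in limma, with a rise of 1.38 (limma adjusted p = 0.0318). The remaining markers of this list did not pass, with Prx at 0.59, S100b at 0.41, Nefl at 0.12 and Nefh, in the opposite direction, at -0.47. The Nefm rise was uneven between the sets, reaching 2.61 among rats 1 to 4 but only 0.14 among rats 5 to 8. Dcn and Nefm did not pass after centring (limma adjusted p = 0.0782 and 0.126) or without control rat 6 (limma adjusted p = 0.0563 for each). None of the measured markers was at the floor on all denervated arrays. Myh11 was at the floor on 2 denervated and 5 control arrays and Acly on 1 and 3, which limits what their differences show. The part of these cells and fibre types in the values of Hadha, Eci1 and Acat1 was not tested.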

How the data were processed

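Each muscle's cDNA was hybridised to a Clontech Atlas membrane of nylon. Per the labels, the authors read the membranes with a phosphorimager and Array Vision and normalised by linear regression. The deposited numbers are scores whose range fits a logarithm. Their base, any background correction and the handling of undetected spots are not stated in the sources used here. Of 1185 probes, 9 that the table names as R with 3 digits, and not RA, were left out. No filter on low values was applied. Probe names came from the platform table, updated through RefSeq gene IDs (1099 tested probes with 1 gene, 77 without). Probes can also bind close relatives of a gene.

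Denervated was compared with control with limma 3.58.1 in R 4.3.3 (lmFit, eBayes with trend, two-sided, Benjamini-Hochberg over 1176 probes), checked on simulated data. The simulated data had independent noise with the same SD in both groups. They held no sets of rats, low array or floor, so they do not cover those conditions. Exact permutations ran over 12870 groupings, with a smallest p of 0.000155. The members, lists, sets of rats and naming rule (members; list genes that passed or the 3 lowest p; the 3 most alike genes) were chosen with earlier results of these data known; Hadhb, Echs1, Acsl5, Acox2, Atp5f1d and the markers were named after their values were seen. The labels do not say that a number is 1 animal, so rats were not treated as paired in the main fit. Same-numbered arrays correlated at 0.059 to 0.19 in their deviations, over 0.1 for 7 of 8 numbers, and the rat number was run as an alternative block. No arrays were copies (at most 0.085% identical values in 120 pairs). Alternatives were centring, quantile normalisation, a common floor, blocks, each set of rats and leaving out each array. Figures used matplotlib 3.10.9. The number of arrays limits precision.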

Additional observations from a re-analysis of the deposited data

Results flagged for a closer look

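In 26 groups of 8 arrays examined, 2 values lay far from the other 7 by Dixon's test, which flags about 1 in 20 groups by chance. The mean over tested probes was 6.63 log units on the array of control rat 6, where the gap to the next control array was 0.953 of the whole range. Scd stood at 7.12 on the array of denervated rat 3, the lowest of its group (gap 0.666 of the range). No value of Hadha, Eci1, Acat1 or Hadhb was that far from its group, as deposited or after centring.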

How the results depend on the processing

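The difference kept its direction under all alternatives run for Hadha and Eci1, and under all but quantile normalisation (-0.018) for Acat1; within rats 1 to 4 alone that normalisation also gave -0.14 for Eci1. Hadha passed at 1.11 with the set of rats as a block (0.90 and not passing when centred), at 1.92 in rats 5 to 8 and at 1.93 there without control rat 6. Eci1 passed in rats 5 to 8 at 1.60 as deposited, 1.10 centred and 1.53 without control rat 6, and Acat1 at 1.20 as deposited and 0.88 without control rat 6. These passes use sets of rats that were seen in the values. Leaving out 1 array gave 0.85 to 1.30 for Hadha as deposited (0.59 without control rat 7 to 1.07 centred), 0.59 to 1.06 for Eci1 (0.37 to 0.85 centred) and 0.50 to 0.97 for Acat1 (0.39 to 0.76 centred). With the rat number as a replicate block no member's call changed (limma adjusted p = 0.0513, 0.114 and 0.178 for Hadha, Eci1 and Acat1, and 0.0611, 0.116 and 0.120 centred), while called probes went to 113 and, centred, 141. 5 of 16 arrays correlated best with their own number.

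Against 74 called probes, 46 were called with a common floor, 131 with the set as a block (117 centred), 30 in rats 1 to 4 (31 centred), 139 in rats 5 to 8 and 171 there without control rat 6, and 43 to 98 without 1 array (centred 39 to 72, the values of 47 or lower being 39, 40, 41, 43, 44 and 47). The share of calls that were higher was 64 of 74 as deposited, 35 of 50 centred and 35 of 62 after quantile normalisation. Against 4 called pathway genes, 2 were called with a common floor and 2 by exact permutation (Cox8a and Scd both times), 2 in rats 1 to 4 (2 centred), 9 in rats 5 to 8 and 9 there without control rat 6, and 3 to 5 without 1 array (2 to 4 centred). Apart from these and the passes of Hadha without control rat 2 or 4, no alternative changed a call of Hadha, Eci1 or Acat1. Correlations over all 16 arrays were planned and are not given, because the arrays fell into sets. The causes of these changes were not tested.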
